A study of Mus musculus with 3 samples.

Results

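The cortical hem is the strip of neuroepithelium at the dorsal medial edge of the embryonic telencephalon, and the cells described here were its progenitors in the mouse at mid-gestation. They were chosen from 3 droplet libraries by their own transcripts. A cell was a member if it carried at least 4 UMIs (unique molecular identifiers, each standing for 1 captured transcript) of Wnt3a, Rspo1 and Rspo2 together, and was low in transcripts of intermediate progenitors (Neurog2, Eomes and Gadd45g), mesenchyme (Col3a1), neurons (Tubb3 and Stmn2) and choroid plexus (Ttr). Of 33001 cells that passed the quality limits, 7115 were members: 2527 of 15375 in the Gmnc-/- library, 2487 of 9468 in wild-type library 1 and 2101 of 8158 in wild-type library 2. They were set against 6366 marker-negative cells, which had no UMI of Wnt3a, Rspo1 or Rspo2 and met the same other limits (3377 in the Gmnc-/- library and 1647 and 1342 in the wild-type libraries). Levels of the 3 choosing genes are therefore a description and not a finding, and so is every other difference between these 2 classes of cells.

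The hem is a signalling centre. It secretes Wnt and Bmp proteins that pattern the neighbouring hippocampal primordium, and its progenitors give rise to Cajal-Retzius neurons, the early reelin-secreting neurons of the cortical surface. On its medial side it passes into the choroid plexus epithelium, and on its lateral side into the pallium, whose progenitors express the transcription factor Lhx2. R-spondins, the proteins encoded by Rspo1, Rspo2 and Rspo3, are secreted amplifiers of Wnt signalling that keep Frizzled receptors at the cell surface.

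Both genotypes were C57BL/6J mice, and in each a region across the dorsal midline of the pallium was taken from both hemispheres. The Gmnc-/- library came from 4 pooled embryos at E12.5 that lacked Gmnc, which encodes a Geminin-related coregulator of the multiciliation programme. Both wild-type libraries were drawn from 1 suspension that pooled 4 PGKCre;Rosa26YFP embryos at E11.5 with 4 Wnt3aCre;Rosa26tdTomato embryos at E12.5. PGK drives Cre in all cells and Wnt3aCre drives it in cells that have expressed Wnt3a, so YFP marks E11.5 cells and tdTomato marks Wnt3a-lineage cells at E12.5. Whether the Gmnc-/- embryos carried a reporter was not stated. Each genotype was thus 1 suspension, there was no biological replicate, and no test was run. Feature set and software version differed between the genotypes and cannot be told apart from genotype. Stage differed in part, since the wild-type pool held both stages, and its tdTomato cells give a wild type of E12.5 from the Wnt3a lineage alone.

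The libraries held between 139978761 and 259403297 UMIs, with a median of 9506 UMIs per member in the Gmnc-/- library and 12045 and 13022 in the wild-type libraries. Levels are given in CPM, the UMIs of a gene over all UMIs, summed over the cells of a class in a library and scaled to 1000000. Bracketed ranges are exact 95% Poisson intervals (for shares of cells, exact Clopper-Pearson intervals) and cover counting error only. A gene was called where its level was at least 2-fold apart in the same direction in every pair of libraries compared, with intervals that did not overlap, and if the higher of the 2 values had 50 UMIs or more and 20 CPM or more. Between members of the wild-type libraries, 3 of 6320 genes met that rule (0.0475%), and the farthest apart was the globin gene Hbb-bt, at 60.3 and 144 CPM. Members shared 2 cell barcodes between the Gmnc-/- library and wild-type library 1, 1 with wild-type library 2 and 0 between the wild-type libraries.

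Members made up 16.4% [15.9% to 17.03%] of the cells in the Gmnc-/- library, against 26.3% [25.4% to 27.2%] and 25.8% [24.8% to 26.7%] in the wild-type libraries. The median sum of the 3 choosing genes within a member was 11 UMIs in the Gmnc-/- library, against 19 and 21 UMIs in the wild-type libraries. After every cell was thinned to 4000 UMIs and the limit on the sum was set to 2 UMIs, members were 16.1% of the cells in the Gmnc-/- library, against 24.4% and 23.9% in the wild-type libraries. The share was thus lower in the Gmnc-/- library at equal depth too. How much of the tissue was hem at dissection is not known for either genotype.

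Erythroid cells, which should express none of the choosing genes, were used to gauge UMIs from other sources. Their median sum was 0 in every library, so these UMIs lay in a part of the erythroid cells. Whether they came from free RNA or from droplets that held several cells was not tested. A sum of 4 UMIs or more was reached by 62 of 354 erythroid cells in the Gmnc-/- library (17.5% [13.7% to 21.9%]) and by 12 of 225 and 10 of 195 in the wild-type libraries (5.33% [2.79% to 9.13%] and 5.13% [2.49% to 9.23%]). Erythroid cells were deeper than members, with a median of 17192 UMIs in the Gmnc-/- library and 16813 and 18682 UMIs in the wild-type libraries. Cells with at least 20% globin UMIs numbered 38 among the Gmnc-/- members and 8 and 9 among the wild-type members.

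The choosing genes lie on 3 chromosomes of the mouse genome (GRCm38, GENCODE vM21). Wnt3a (ENSMUSG00000009900) is at chromosome 11, 59248033 to 59290752, minus strand, Rspo1 (ENSMUSG00000028871) at chromosome 4, 124986430 to 125009099, plus strand, and Rspo2 (ENSMUSG00000051920) at chromosome 15, 43020794 to 43170826, minus strand. Wnt9a, a Wnt gene that the rule did not use, is the neighbour of Wnt3a on the opposite strand, and the starts of the 2 genes are 16176 bases apart in that annotation. The 250 bases before the starts of Wnt3a, Wnt9a, Rspo1 and the Wnt target gene Sp5 are shown because the levels of the first 3 define or follow the members and Sp5 carries the letters bound by Tcf and Lef factors, the nuclear effectors of Wnt signalling. They are from RefSeq on GRCm38.p6, each on the strand of its gene. Capitals mark CTTTGA, which was searched together with its reverse complement TCAAAG.
Wnt3a, chr11:59290752-59291001, minus strand: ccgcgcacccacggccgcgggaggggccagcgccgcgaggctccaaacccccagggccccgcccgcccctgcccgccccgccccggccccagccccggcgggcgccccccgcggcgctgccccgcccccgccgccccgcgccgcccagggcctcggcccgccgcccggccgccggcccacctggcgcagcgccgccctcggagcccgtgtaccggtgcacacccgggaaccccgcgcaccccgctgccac
Wnt9a, chr11:59306680-59306929, plus strand: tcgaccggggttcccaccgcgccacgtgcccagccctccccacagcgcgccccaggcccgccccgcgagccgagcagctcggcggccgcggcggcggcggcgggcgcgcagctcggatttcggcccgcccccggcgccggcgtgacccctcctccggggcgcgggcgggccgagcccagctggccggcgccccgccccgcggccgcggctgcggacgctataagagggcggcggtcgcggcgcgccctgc
Rspo1, chr4:124986180-124986429, plus strand: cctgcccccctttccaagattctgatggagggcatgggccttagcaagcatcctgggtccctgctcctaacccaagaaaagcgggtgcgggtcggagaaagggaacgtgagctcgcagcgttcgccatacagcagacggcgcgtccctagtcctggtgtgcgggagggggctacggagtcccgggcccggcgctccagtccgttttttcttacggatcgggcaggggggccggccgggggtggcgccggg
Sp5, chr2:70474673-70474922, plus strand: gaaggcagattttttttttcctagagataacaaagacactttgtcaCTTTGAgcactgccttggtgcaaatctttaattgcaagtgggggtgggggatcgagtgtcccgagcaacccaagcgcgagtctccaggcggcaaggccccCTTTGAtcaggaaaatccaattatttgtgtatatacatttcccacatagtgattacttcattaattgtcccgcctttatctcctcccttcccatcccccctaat
The Wnt3a and Wnt9a windows are 87.6% and 84.4% G and C, the Rspo1 window 66.8% and the Sp5 window 46.0%. Sp5 holds 2 matches and the other windows hold 0. Over all 32851 RefSeq promoter windows of this length, 13.8% hold a match. Promoters were matched for 17 of the 27 Wnt, R-spondin, Bmp, midline and marker genes described below, and 1 of the 17 holds a match. A match describes letters and not a bound site.

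Most members were chosen through R-spondins. Rspo1 had a UMI in 98.1% of Gmnc-/- members and in 97.6% and 98.2% of wild-type members, and Rspo2 in 77.6% of Gmnc-/- members and in 85.4% and 84.7% of wild-type members. Wnt3a had a UMI in 30.0% [28.2% to 31.8%] of Gmnc-/- members, against 45.1% [43.1% to 47.1%] and 48.5% [46.3% to 50.6%] of wild-type members. In erythroid cells the share with a Wnt3a UMI was 4.80% in the Gmnc-/- library and 1.33% and 5.13% in the wild-type libraries. All 3 genes were seen together in 27.7% of Gmnc-/- members, against 43.1% and 45.9% of wild-type members. Rspo1 alone accounted for 20.4% of Gmnc-/- members, against 13.1% and 13.3% of wild-type members, and no member carried Wnt3a alone. In summed levels Rspo1 was at 825 CPM in Gmnc-/- members and 1195 and 1265 CPM in wild-type members, Rspo2 at 358 CPM in Gmnc-/- members and 419 and 411 CPM in wild-type members, and Wnt3a at 32.6 CPM in Gmnc-/- members and 57.4 and 59.8 CPM in wild-type members.

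The other marker genes of the hem were called higher in members. Dkk3, which encodes a secreted protein of the Dickkopf family, was at 81.0 [78.0 to 84.1] CPM in Gmnc-/- members and 47.4 [45.2 to 49.8] and 52.2 [49.7 to 54.7] CPM in wild-type members, against 5.97 CPM in Gmnc-/- and 0.967 and 1.49 CPM in wild-type marker-negative cells. Sertm1, a transmembrane protein gene, was at 48.8 [46.4 to 51.2] CPM in Gmnc-/- members and 55.0 [52.6 to 57.5] and 53.4 [50.9 to 56.0] CPM in wild-type members, against 4.67 CPM in Gmnc-/- and 4.25 and 4.46 CPM in wild-type marker-negative cells. Lmo2, a LIM-only transcriptional cofactor best known from blood formation, was at 242 [236 to 247] CPM in Gmnc-/- members and 289 [283 to 295] and 311 [305 to 318] CPM in wild-type members, against 60.8 CPM in Gmnc-/- and 89.4 and 83.6 CPM in wild-type marker-negative cells. Dkk3 and Sertm1 were each at least 8-fold higher in members in every library, while for Lmo2 the folds were 3.97, 3.23 and 3.73. Lmo2 is also a gene of erythroid cells. There it reached 49.98 CPM in the Gmnc-/- library and 54.1 and 58.1 CPM in the wild-type libraries, below the marker-negative cells of each. Without erythroid cells and microglia, marker-negative cells had Lmo2 at 62.9, 95.9 and 89.1 CPM in the Gmnc-/-, wild-type 1 and wild-type 2 libraries.

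**Figure D1:**
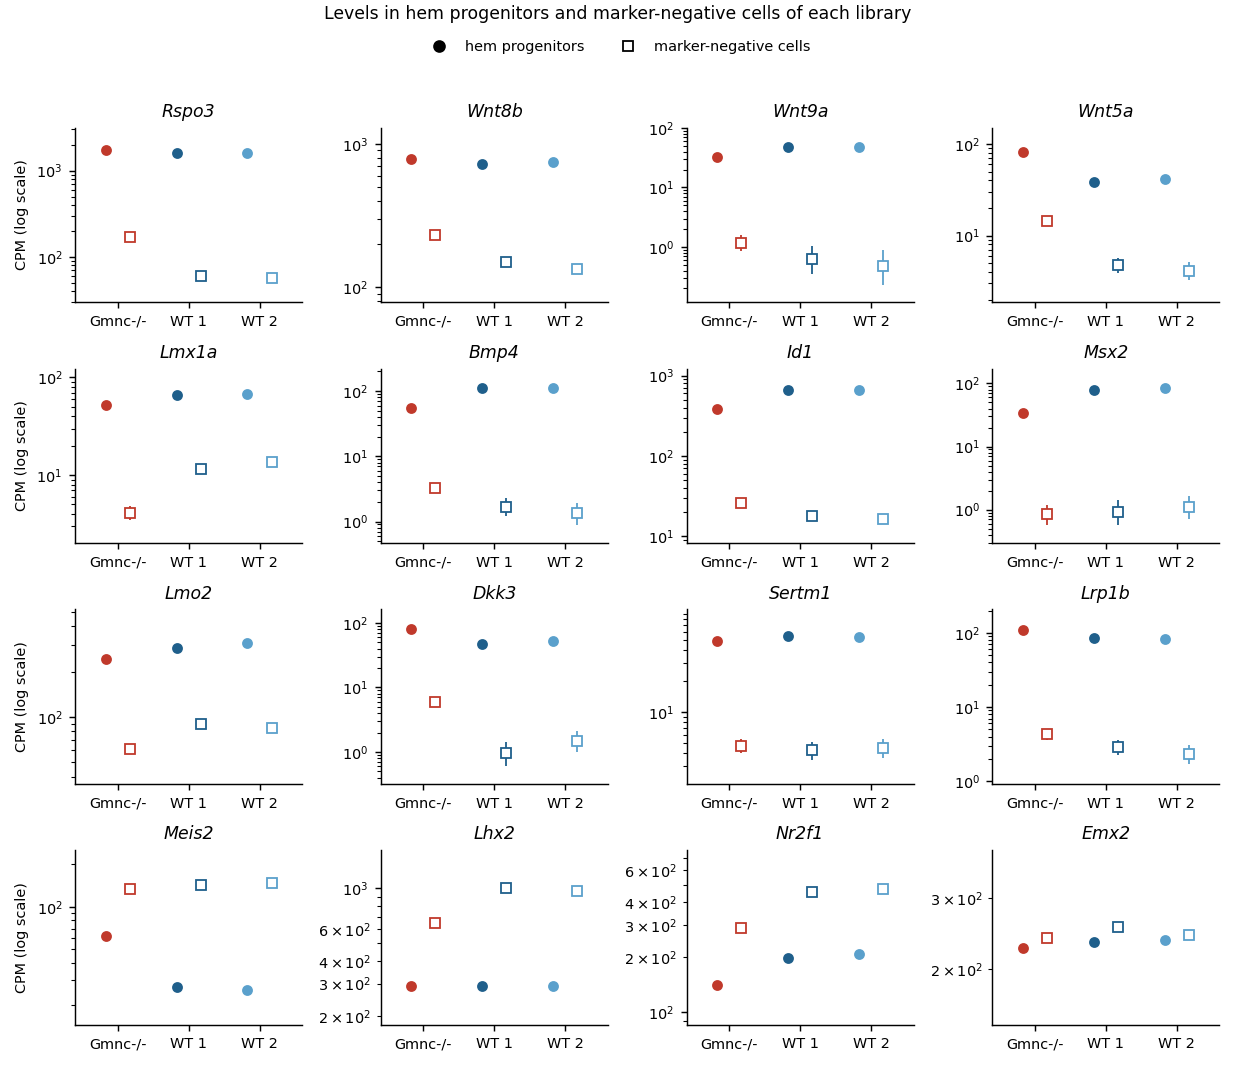
Levels in hem progenitors (filled circles) and marker-negative cells (open squares) of the Gmnc-/- library and wild-type libraries 1 and 2, in CPM on log axes; bars are exact 95% Poisson intervals. Rspo3, Wnt9a, Bmp4, Id1, Msx2, Dkk3, Sertm1 and Lrp1b stand an order of magnitude or nearly so above the marker-negative cells, Meis2, Lhx2 and Nr2f1 stand below them, and Emx2 is level.

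Across all genes, 200 of the 5907 genes deep enough were called higher in members than in marker-negative cells (3.39%) and 30 were called lower (0.508%). Under median-ratio size factors the split was 148 higher and 61 lower, and under TMM size factors 153 and 57. Against marker-negative cells without erythroid cells and microglia, a class chosen after the data were seen, 199 genes were called higher and 22 lower, of which 185 and 13 were among the 200 and the 30. The median log2 fold over the 5907 genes was 0.19. Besides the rule genes, the 15 genes with the largest fold in the library where it was smallest were Lrp1b, Lrrtm3, Msx2, Wnt9a, Sulf1, Id1, Bmp4, Dkk3, Rspo3, Pcp4l1, Clic6, Sertm1, Scn3a, Folr1 and Klhl13. Lrp1b, a receptor of the low-density lipoprotein receptor family, led them with 109 CPM in Gmnc-/- members and 86.0 and 82.0 CPM in wild-type members, against 4.27 CPM in Gmnc-/- and 2.86 and 2.30 CPM in wild-type marker-negative cells. Lrrtm3, a leucine-rich repeat membrane protein gene, was at 30.3 CPM in Gmnc-/- members and 30.8 and 30.6 CPM in wild-type members, against 0.513 CPM in Gmnc-/- and 0.379 and 0.144 CPM in wild-type marker-negative cells. Sulf1 encodes an extracellular sulfatase that edits heparan sulfate, the matrix sugar on which Wnt and Bmp proteins travel, and it was at 274 CPM in Gmnc-/- members and 268 and 243 CPM in wild-type members, against 16.8 CPM in Gmnc-/- and 8.12 and 4.51 CPM in wild-type marker-negative cells. Klhl13, an adaptor of a ubiquitin ligase, was at 118 CPM in Gmnc-/- members and 113 and 111 CPM in wild-type members, against 13.5 CPM in Gmnc-/- and 10.2 and 9.83 CPM in wild-type marker-negative cells. Scn3a, a voltage-gated sodium channel gene, was at 38.8 CPM in Gmnc-/- members and 29.2 and 29.5 CPM in wild-type members, against 3.62 CPM in Gmnc-/- and 0.925 and 0.671 CPM in wild-type marker-negative cells. Pcp4l1 was at 24.5 CPM in Gmnc-/- members and 32.2 and 33.1 CPM in wild-type members, against 1.84 CPM in Gmnc-/- and 0.463 and 0.192 CPM in wild-type marker-negative cells. All these genes were picked for a large fold over marker-negative cells in every library of both genotypes, so that fold is no separate finding.

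Of the 19 Wnt ligand genes, Wnt8b, Wnt7b, Wnt5a and Wnt9a were called higher, which was all 4 that were deep enough outside the rule. Their median log2 fold was 2.46. Wnt8b took the most UMIs, at 779 [769.8 to 789] CPM in Gmnc-/- members and 729 [720.5 to 738] and 742 [733 to 751] CPM in wild-type members, against 230.4 CPM in Gmnc-/- and 149.6 and 134 CPM in wild-type marker-negative cells. Wnt7b was at 97.1 CPM in Gmnc-/- members and 155 and 167 CPM in wild-type members, against 43.7 CPM in Gmnc-/- and 62.2 and 60.8 CPM in wild-type marker-negative cells. Wnt5a, a ligand known for signalling without beta-catenin, was at 81.9 CPM in Gmnc-/- members and 38.8 and 41.7 CPM in wild-type members, against 14.5 CPM in Gmnc-/- and 4.75 and 4.12 CPM in wild-type marker-negative cells. Wnt9a followed its neighbour Wnt3a, at 33.1 [31.2 to 35.1] CPM in Gmnc-/- members and 48.1 [45.8 to 50.4] and 48.9 [46.5 to 51.4] CPM in wild-type members, against 1.16 CPM in Gmnc-/- and 0.631 and 0.479 CPM in wild-type marker-negative cells. Wnt5b, which missed 20 CPM in the Gmnc-/- library, was at 19.1 CPM in Gmnc-/- members and 21.3 and 22.7 CPM in wild-type members, against 11.48 CPM in Gmnc-/- and 16.0 and 16.9 CPM in wild-type marker-negative cells. Marker-negative cells of the Gmnc-/- library had more Wnt8b and Wnt5a than those of the wild-type libraries, while the members were closer to each other.

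Rspo3, the R-spondin that the rule left out, took more UMIs than either chosen one. It stood at 1740.5 [1726 to 1755] CPM in Gmnc-/- members and 1617 [1604 to 1630.3] and 1587 [1573 to 1600.3] CPM in wild-type members, against 168 CPM in Gmnc-/- and 59.6 and 56.1 CPM in wild-type marker-negative cells, so members were 10.4, 27.1 and 28.3 times higher in the Gmnc-/- library and wild-type libraries 1 and 2. Of the R-spondin receptors and their ubiquitin ligases only Znrf3, which removes Frizzled receptors from the membrane, passed 20 CPM, at 21.6 CPM in Gmnc-/- members and 20.2 and 20.2 CPM in wild-type members, against 16.5 CPM in Gmnc-/- and 16.0 and 16.2 CPM in wild-type marker-negative cells. Of 16 Wnt receptor genes 8 were deep enough and 1, Fzd10, was called higher (median log2 fold 0.12). Fzd10, named after its values were seen, was at 25.5 CPM in Gmnc-/- members and 26.8 and 27.7 CPM in wild-type members, against 2.38 CPM in Gmnc-/- and 0.799 and 1.25 CPM in wild-type marker-negative cells. Ryk, an atypical receptor, was at 104 CPM in Gmnc-/- members and 161 and 161 CPM in wild-type members, against 85.5 CPM in Gmnc-/- and 115 and 117 CPM in wild-type marker-negative cells. Fzd2 was at 80.7 CPM in Gmnc-/- members and 105 and 104 CPM in wild-type members, against 93.1 CPM in Gmnc-/- and 138 and 144 CPM in wild-type marker-negative cells.

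Of 8 targets and nuclear factors of Wnt signalling deep enough, 1, Axin2, was called higher (median log2 fold 0.62). Axin2, a scaffold of the beta-catenin destruction complex that is itself a Wnt target, was at 210.2 [205 to 215] CPM in Gmnc-/- members and 149 [145 to 153] and 153 [149 to 158] CPM in wild-type members, against 58.9 CPM in Gmnc-/- and 29.6 and 32.3 CPM in wild-type marker-negative cells. Sp5, whose promoter window holds both marked matches, was at 140.5 CPM in Gmnc-/- members and 157 and 158 CPM in wild-type members, against 79.9 CPM in Gmnc-/- and 78.6 and 74.5 CPM in wild-type marker-negative cells, which is under 2-fold in the Gmnc-/- library. Nkd1, an inhibitor of Dishevelled, was at 65.0 CPM in Gmnc-/- members and 79.5 and 82.0 CPM in wild-type members, against 40.1 CPM in Gmnc-/- and 24.3 and 25.9 CPM in wild-type marker-negative cells. Ctnnb1, beta-catenin itself, was at 391 CPM in Gmnc-/- members and 575 and 581 CPM in wild-type members, against 273 CPM in Gmnc-/- and 347 and 344 CPM in wild-type marker-negative cells. Among 12 genes of secreted Wnt antagonists, 5 were deep enough, and Dkk3 and Draxin were called higher. Draxin, also named after its values were seen and known as a repellent of axons, was at 32.1 CPM in Gmnc-/- members and 20.3 and 22.0 CPM in wild-type members, against 12.8 CPM in Gmnc-/- and 2.36 and 2.35 CPM in wild-type marker-negative cells. Sfrp1, which binds Wnt proteins in the extracellular space, was at 99.8 CPM in Gmnc-/- members and 47.8 and 44.4 CPM in wild-type members, against 140.0 CPM in Gmnc-/- and 119 and 123 CPM in wild-type marker-negative cells.

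Bmp ligand genes and their targets were high in members. Bmp4 and Bmp7 were called, 2 of 3 ligand genes deep enough (median log2 fold 2.12). Bmp4 was at 56.0 [53.5 to 58.6] CPM in Gmnc-/- members and 112 [108 to 115] and 112 [108 to 115] CPM in wild-type members, against 3.27 CPM in Gmnc-/- and 1.68 and 1.34 CPM in wild-type marker-negative cells. Bmp7 was at 62.2 CPM in Gmnc-/- members and 93.7 and 90.9 CPM in wild-type members, against 18.5 CPM in Gmnc-/- and 18.8 and 16.3 CPM in wild-type marker-negative cells. Gdf11 was under 2-fold, at 35.1 CPM in Gmnc-/- members and 24.4 and 23.0 CPM in wild-type members, against 22.8 CPM in Gmnc-/- and 15.3 and 14.4 CPM in wild-type marker-negative cells. Of the targets and antagonists 5 of 9 were called higher and 1 lower, with a median log2 fold of 3.33. Id1 and Id3 encode inhibitors of basic helix-loop-helix factors and are direct Bmp targets. Id1 was at 383 [376 to 389] CPM in Gmnc-/- members and 663 [655 to 672] and 653 [644 to 661] CPM in wild-type members, against 26.1 CPM in Gmnc-/- and 17.96 and 16.6 CPM in wild-type marker-negative cells. Id3 was at 1394 CPM in Gmnc-/- members and 2229 and 2312 CPM in wild-type members, against 192 CPM in Gmnc-/- and 169 and 168 CPM in wild-type marker-negative cells. Id2 was at 163 CPM in Gmnc-/- members and 216 and 224 CPM in wild-type members, against 26.9 CPM in Gmnc-/- and 15.2 and 16.4 CPM in wild-type marker-negative cells. Msx1 and Msx2 are homeobox genes downstream of Bmp signalling. Msx1 was at 83.4 CPM in Gmnc-/- members and 87.8 and 83.5 CPM in wild-type members, against 10.1 CPM in Gmnc-/- and 6.06 and 5.80 CPM in wild-type marker-negative cells. Msx2 was at 33.6 [31.6 to 35.6] CPM in Gmnc-/- members and 80.0 [77.1 to 83.0] and 85.8 [82.6 to 89.0] CPM in wild-type members, against 0.837 CPM in Gmnc-/- and 0.925 and 1.10 CPM in wild-type marker-negative cells. Id4 was the one called lower, at 244 CPM in Gmnc-/- members and 92.6 and 101 CPM in wild-type members, against 521 CPM in Gmnc-/- and 308 and 321 CPM in wild-type marker-negative cells.

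Of 11 dorsal midline transcription factors deep enough, 7 were called higher, with a median log2 fold of 2.14. Lmx1a, a LIM homeodomain factor that marks the hem, was at 51.6 [49.2 to 54.2] CPM in Gmnc-/- members and 66.7 [64.1 to 69.5] and 67.7 [64.9 to 70.6] CPM in wild-type members, against 4.13 CPM in Gmnc-/- and 11.6 and 13.7 CPM in wild-type marker-negative cells. Most of the UMIs in those marker-negative cells lay in erythroid cells, which carried Lmx1a at 42.0 CPM in the Gmnc-/- library and 82.2 and 92.5 CPM in the wild-type libraries. A Lmx1a UMI was found in 48.02% of erythroid cells in the Gmnc-/- library and in 75.6% and 80.0% in the wild-type libraries, shares above the 40.6% of Gmnc-/- members and the 51.1% and 54.5% of wild-type members. Without erythroid cells and microglia, marker-negative cells had 1.15, 1.60 and 1.07 CPM of Lmx1a in the Gmnc-/-, wild-type 1 and wild-type 2 libraries. Otx2, a homeobox factor of the midline and choroid plexus, was at 261 CPM in Gmnc-/- members and 206 and 194 CPM in wild-type members, against 31.1 CPM in Gmnc-/- and 2.90 and 1.77 CPM in wild-type marker-negative cells. Zic1, Zic2, Zic4 and Zic5, zinc-finger factors of the dorsal midline, were among them. Zic1 was at 395 CPM in Gmnc-/- members and 361 and 354 CPM in wild-type members, against 137 CPM in Gmnc-/- and 32.6 and 28.6 CPM in wild-type marker-negative cells. Zic4 was at 227 CPM in Gmnc-/- members and 167 and 155 CPM in wild-type members, against 65.9 CPM in Gmnc-/- and 5.005 and 3.26 CPM in wild-type marker-negative cells. Zic5 was at 273 CPM in Gmnc-/- members and 214 and 213 CPM in wild-type members, against 104 CPM in Gmnc-/- and 41.4 and 39.5 CPM in wild-type marker-negative cells. The wild-type marker-negative cells were nearly empty of Zic4, while those of the Gmnc-/- library were not. Zic2 was at 112 CPM in Gmnc-/- members and 130.1 and 128 CPM in wild-type members, against 39.3 CPM in Gmnc-/- and 23.2 and 22.0 CPM in wild-type marker-negative cells. The 4 genes that were not called were Otx1, Gli3, Dmrta2 and Dmrt3, which are known also from the pallium. Gli3, without which the hem does not form, was at 124 CPM in Gmnc-/- members and 111 and 115 CPM in wild-type members, against 107 CPM in Gmnc-/- and 105 and 112 CPM in wild-type marker-negative cells. Dmrta2, another gene the hem depends on, was at 247 CPM in Gmnc-/- members and 288 and 295 CPM in wild-type members, against 183 CPM in Gmnc-/- and 180.3 and 189 CPM in wild-type marker-negative cells. Dmrt3 was at 104 CPM in Gmnc-/- members and 131 and 128 CPM in wild-type members, against 68.7 CPM in Gmnc-/- and 86.6 and 82.4 CPM in wild-type marker-negative cells. Otx1 was at 139.7 CPM in Gmnc-/- members and 125 and 125 CPM in wild-type members, against 95.3 CPM in Gmnc-/- and 67.6 and 61.7 CPM in wild-type marker-negative cells.

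Of 11 pallial patterning genes deep enough, 3 were called lower in members, Lhx2 and Nr2f1 among them, and Nr2f2 was called higher, with a median log2 fold of -0.32. Lhx2, a LIM homeodomain factor that holds cortical progenitors outside the hem, was at 292 [286 to 298] CPM in Gmnc-/- members and 291 [285 to 296] and 293 [287 to 299] CPM in wild-type members, against 645 CPM in Gmnc-/- and 999 and 969.6 CPM in wild-type marker-negative cells. Nr2f1 and Nr2f2 are paralogous nuclear receptors and went opposite ways. Nr2f1, named after its values were seen, was at 141 CPM in Gmnc-/- members and 198 and 208 CPM in wild-type members, against 289 CPM in Gmnc-/- and 458 and 473 CPM in wild-type marker-negative cells. Nr2f2 was at 189.7 CPM in Gmnc-/- members and 270.4 and 263 CPM in wild-type members, against 33.5 CPM in Gmnc-/- and 30.7 and 32.7 CPM in wild-type marker-negative cells. Emx2, a homeobox gene of the dorsal telencephalon, was level, at 225 CPM in Gmnc-/- members and 234 and 236 CPM in wild-type members, against 238 CPM in Gmnc-/- and 254 and 243 CPM in wild-type marker-negative cells. Hes5, a Notch target, was at 275 CPM in Gmnc-/- members and 330.1 and 341 CPM in wild-type members, against 143 CPM in Gmnc-/- and 200.0 and 209 CPM in wild-type marker-negative cells.

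The genes with the largest folds on the lower side included 7 known from erythroid cells or microglia, namely Tyrobp, C1qb, Fcer1g, Car2, Slc4a1, Alas2 and Apoe. All 7 had a higher level in members when erythroid cells and microglia were left out of the marker-negative cells. The members kept such cells: 38, 8 and 9 erythroid cells and 7, 3 and 2 microglia in the Gmnc-/- library and wild-type libraries 1 and 2. Tyrobp, C1qb and Fcer1g were also among the genes by which microglia were left out. This reversal can therefore not be read as a trait of hem progenitors. Mt1, Prr15, Lhx2, Tgfb2, Meis2 and Hs6st2 were lower in members with and without those cells. Meis2, a homeobox cofactor, was at 62.1 CPM in Gmnc-/- members and 27.2 and 25.7 CPM in wild-type members, against 134 CPM in Gmnc-/- and 144 and 148 CPM in wild-type marker-negative cells. Tgfb2, a secreted growth factor gene, was at 39.7 CPM in Gmnc-/- members and 21.8 and 21.7 CPM in wild-type members, against 87.0 CPM in Gmnc-/- and 94.9 and 87.7 CPM in wild-type marker-negative cells. Mt1, a metallothionein, was at 50.6 CPM in Gmnc-/- members and 15.8 and 15.1 CPM in wild-type members, against 244 CPM in Gmnc-/- and 208 and 195 CPM in wild-type marker-negative cells.

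Members also carried transcripts from a list labelled as forebrain factors outside the pallium. The label is loose, and a call in this list does not show a non-pallial identity. Six3 and Lhx5, homeobox genes of the anterior forebrain and the diencephalon, were called higher, 2 of the 3 genes of this list deep enough. Six3 was at 61.4 CPM in Gmnc-/- members and 90.1 and 82.2 CPM in wild-type members, against 20.6 CPM in Gmnc-/- and 2.19 and 0.575 CPM in wild-type marker-negative cells, and had a UMI in 30.4% of Gmnc-/- members and 42.3% and 41.9% of wild-type members. In erythroid cells a Six3 UMI was found in 46 of 354 in the Gmnc-/- library and in 9 of 225 and 4 of 195 in the wild-type libraries. Lhx5 was at 25.5 CPM in Gmnc-/- members and 34.0 and 34.2 CPM in wild-type members, against 3.97 CPM in Gmnc-/- and 0.547 and 0.719 CPM in wild-type marker-negative cells. Fezf2 was at 122 CPM in Gmnc-/- members and 112 and 116 CPM in wild-type members, against 155 CPM in Gmnc-/- and 173 and 163 CPM in wild-type marker-negative cells, and Fezf1, below the depth limit, at 7.05 CPM in Gmnc-/- members and 15.2 and 15.3 CPM in wild-type members.

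Of 18 neuroepithelial and radial glia genes, 3 were called higher in members and 1, Apoe, lower (median log2 fold 0.17). Apoe was on the higher side when erythroid cells and microglia were left out of the marker-negative cells alone. Sox2, which sustains neural progenitors, was at 563 CPM in Gmnc-/- members and 490.1 and 482 CPM in wild-type members, against 353 CPM in Gmnc-/- and 339.8 and 333 CPM in wild-type marker-negative cells. The filament gene Vim was at 1360.2 CPM in Gmnc-/- members and 1948 and 1982 CPM in wild-type members, against 1023 CPM in Gmnc-/- and 1196 and 1215 CPM in wild-type marker-negative cells. Fabp7, a fatty acid binding protein of radial glia, was at 1101 CPM in Gmnc-/- members and 778 and 807 CPM in wild-type members, against 366 CPM in Gmnc-/- and 117 and 113 CPM in wild-type marker-negative cells. Hmga2, a chromatin gene of young progenitors, was at 201 CPM in Gmnc-/- members and 256 and 252 CPM in wild-type members, against 252 CPM in Gmnc-/- and 478 and 484 CPM in wild-type marker-negative cells. In the Notch list 1 of 10 genes was called, Notch2, at 109 CPM in Gmnc-/- members and 71.5 and 61.7 CPM in wild-type members, against 38.9 CPM in Gmnc-/- and 17.7 and 16.3 CPM in wild-type marker-negative cells. In the Fgf list Spry1 and Dusp6, feedback inhibitors of Fgf signalling, were called, 2 of 6. Spry1 was at 49.2 CPM in Gmnc-/- members and 45.8 and 44.6 CPM in wild-type members, against 23.9 CPM in Gmnc-/- and 11.1 and 10.6 CPM in wild-type marker-negative cells, while the receptor Fgfr1 was at 107 CPM in Gmnc-/- members and 98.4 and 97.4 CPM in wild-type members, against 61.0 CPM in Gmnc-/- and 55.0 and 52.7 CPM in wild-type marker-negative cells. Among 13 genes of guidance and adhesion the cadherin Cdh11 and the ephrin Efna5 were called. With 3.39% of all genes called higher, 1 or 2 calls in lists this short carry little weight. Cdh2, N-cadherin, was at 256 CPM in Gmnc-/- members and 212 and 219 CPM in wild-type members, against 165 CPM in Gmnc-/- and 132 and 129.9 CPM in wild-type marker-negative cells.

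Neither division list had a call: none of 21 S phase genes and none of 21 genes of G2 and M phase was called, and the median log2 folds were -0.10 and 0.10. Top2a, the topoisomerase of dividing cells, was at 529.8 CPM in Gmnc-/- members and 504 and 491 CPM in wild-type members, against 527 CPM in Gmnc-/- and 414 and 412 CPM in wild-type marker-negative cells. Rrm2, a subunit of ribonucleotide reductase, was at 172 CPM in Gmnc-/- members and 309 and 318 CPM in wild-type members, against 187 CPM in Gmnc-/- and 342 and 329 CPM in wild-type marker-negative cells. Ccnd2, a G1 cyclin, was at 800.0 CPM in Gmnc-/- members and 839 and 842 CPM in wild-type members, against 902 CPM in Gmnc-/- and 710.3 and 738 CPM in wild-type marker-negative cells. No gene of the cell cycle exit list was called among 8. Over all genes 3.39% were called higher and 0.508% lower, so no call in lists this short is near that share.

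Markers of other cell types were present in members, and the erythroid ones at a high level. The 9 erythroid markers summed to 12263 CPM in Gmnc-/- members and 2329 and 3691 CPM in wild-type members, against 42103 CPM in Gmnc-/- and 74287 and 86183 CPM in wild-type marker-negative cells. Of the 12 Cajal-Retzius markers none was deep enough to compare, and their summed level was 51.0 CPM in Gmnc-/- members and 40.02 and 42.2 CPM in wild-type members, against 16.96 CPM in Gmnc-/- and 15.1 and 17.3 CPM in wild-type marker-negative cells. Reln was at 10.4 CPM in Gmnc-/- members and 6.91 and 7.89 CPM in wild-type members. The 10 neuron markers summed to 348 CPM in Gmnc-/- members and 347 and 354 CPM in wild-type members, against 387 CPM in Gmnc-/- and 454 and 449 CPM in wild-type marker-negative cells. The 11 intermediate progenitor markers summed to 308 CPM in Gmnc-/- members and 292 and 297 CPM in wild-type members, against 286 CPM in Gmnc-/- and 286 and 279 CPM in wild-type marker-negative cells, and both they and the neuron markers were limited by the rule. Mesenchymal markers summed to 77.2 CPM in Gmnc-/- members and 60.7 and 58.5 CPM in wild-type members, against 51.8 CPM in Gmnc-/- and 38.5 and 39.8 CPM in wild-type marker-negative cells. Endothelial markers summed to 27.0 CPM in Gmnc-/- members and 14.9 and 15.6 CPM in wild-type members, against 4.81 CPM in Gmnc-/- and 2.82 and 3.45 CPM in wild-type marker-negative cells. Microglial markers summed to 15.6 CPM in Gmnc-/- members and 9.85 and 4.23 CPM in wild-type members, against 196 CPM in Gmnc-/- and 200.4 and 169 CPM in wild-type marker-negative cells. The Cajal-Retzius, mesenchymal and endothelial sums were thus higher in members in every library, and the erythroid, microglial and neuron sums lower. Single markers differed within these lists. Against marker-negative cells without erythroid cells and microglia, Kdr had log2 folds of 3.24, 3.26 and 3.16 (Gmnc-/-, wild-type 1 and 2). Cldn5, also endothelial, had -0.56, 0.04 and 0.05. Of the mesenchymal markers, Pdgfra had 2.33, 2.81 and 2.61, and Twist1 -0.75, 0.23 and -0.02. Of the endothelial markers 4 of 8 were at 0 in Gmnc-/- members and 1 and 2 of 8 in wild-type members.

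Of the lists for other cell types, the choroid plexus list was the one with genes called higher: Folr1, Clic6 and Trpm3, 3 of 4 genes deep enough (median log2 fold 3.63). All 9 erythroid markers and the 3 microglial markers deep enough were called lower. The choroid plexus genes were called although Ttr itself was limited by the rule. Folr1, a folate receptor, was at 51.3 CPM in Gmnc-/- members and 70.3 and 66.6 CPM in wild-type members, against 5.35 CPM in Gmnc-/- and 1.89 and 2.01 CPM in wild-type marker-negative cells. Clic6, a chloride channel protein gene, was at 29.7 CPM in Gmnc-/- members and 54.5 and 50.4 CPM in wild-type members, against 2.46 CPM in Gmnc-/- and 2.31 and 1.82 CPM in wild-type marker-negative cells. Ttr, the thyroid hormone carrier of the choroid plexus, was at 155 CPM in Gmnc-/- members and 109 and 104 CPM in wild-type members within its limit. Igfbp2 was at 693 CPM in Gmnc-/- members and 753 and 707 CPM in wild-type members, against 464 CPM in Gmnc-/- and 465 and 450.5 CPM in wild-type marker-negative cells. Kl had 0 UMIs in the members of every library, and Aqp1 and Kcnj13, genes of the mature epithelium, were below 4 CPM.

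Among 13 regulators of multiciliation 4 were deep enough and 1, the ciliary transcription factor Rfx3, was called (median log2 fold 0.27), at 44.5 CPM in Gmnc-/- members and 30.6 and 29.7 CPM in wild-type members, against 21.7 CPM in Gmnc-/- and 11.52 and 12.8 CPM in wild-type marker-negative cells. Gmnn, the replication inhibitor Geminin, was at 164 CPM in Gmnc-/- members and 205 and 203 CPM in wild-type members, against 171 CPM in Gmnc-/- and 190.4 and 187 CPM in wild-type marker-negative cells. Gmnc itself was low, at 3.62 [3.00 to 4.33] CPM in Gmnc-/- members and 5.54 [4.79 to 6.37] and 5.40 [4.63 to 6.26] CPM in wild-type members, against 1.27 CPM in Gmnc-/- and 0.799 and 0.767 CPM in wild-type marker-negative cells. The 3′ tags of the deleted gene were still counted in the Gmnc-/- library. Since the labels do not say which part of Gmnc was removed, these tags check neither the label nor the loss of function. Ccno, a cyclin-like gene downstream of Gmnc, had 0 UMIs in Gmnc-/- members, where a count of 0 allows up to 0.0904 CPM, against 4.03 and 5.98 CPM in wild-type members. Members of wild-type libraries 1 and 2 were thus at least 44.5-fold and 66.2-fold higher (floor of 3 counts over the Gmnc-/- members). Mcidas, its partner in that programme, also had 0 UMIs in Gmnc-/- members, against 1.23 and 2.52 CPM in wild-type members, at least 13.6-fold and 27.8-fold higher. Without erythroid cells and microglia, marker-negative cells had Ccno at 0.0296 CPM in the Gmnc-/- library, against 1.07 and 1.75 CPM in the wild-type libraries. In those cells Mcidas was at 0 CPM in the Gmnc-/- library, against 0.776 and 0.677 CPM in the wild-type libraries. Both genes were thus lower in the Gmnc-/- library outside the members too. Foxj1, a master factor of motile cilia, was at 15.01 [13.7 to 16.4] CPM in Gmnc-/- members and 31.2 [29.4 to 33.1] and 32.6 [30.7 to 34.6] CPM in wild-type members, against 4.81 CPM in Gmnc-/- and 5.97 and 6.28 CPM in wild-type marker-negative cells.

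Part of the cells had a sum of the 3 choosing genes between 0 and the limit of 4. Whether such sums reflect an intermediate level, sampling at low depth, free RNA or droplets that held several cells was not tested. After thinning to 4000 UMIs, cells within the other limits had a sum of 0 in 55.8%, of 1 in 12.2%, of 2 to 3 in 9.78% and of 4 or more in 22.2% in the Gmnc-/- library. In wild-type library 1 the shares were 45.1%, 8.38%, 9.28% and 37.2%, and in wild-type library 2 they were 44.3%, 8.10%, 9.15% and 38.5%. Cells just inside the limit, with a sum of 4 UMIs before thinning, had Lhx2 at 526 CPM in the Gmnc-/- library and 702 and 917 CPM in the wild-type libraries. Just outside it, with a sum of 3, Lhx2 was at 538 CPM in the Gmnc-/- library and 901 and 961 CPM in the wild-type libraries. Rspo3 was at 601 CPM inside in the Gmnc-/- library and 608 and 507 CPM in the wild-type libraries, against 447 CPM outside in the Gmnc-/- library and 376 and 320 CPM in the wild-type libraries.

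Along the thinned sum, Rspo3, Wnt9a and other hem genes climbed, while Lhx2 and Meis2 fell. Over sums of 0, 1, 2 to 3 and 4 or more, Rspo3 was at 194, 500, 1032 and 2609 CPM in the Gmnc-/- library, 109, 408, 1071 and 1959.5 CPM in wild-type library 1 and 90.9, 481, 1129.8 and 1887 CPM in wild-type library 2. Wnt9a was at 1.76, 6.02, 17.2 and 55.1 CPM in the Gmnc-/- library, 1.47, 6.72, 16.0 and 63.2 CPM in wild-type library 1 and 0.710, 10.9, 13.7 and 69.6 CPM in wild-type library 2. Wnt8b, Id1, Id3, Dkk3, Sertm1, Lrp1b and Axin2 climbed at each step in all 3 libraries. Lmx1a was at 4.78, 9.75, 32.6 and 78.2 CPM in the Gmnc-/- library, 13.6, 13.4, 49.1 and 79.7 CPM in wild-type library 1 and 10.5, 14.8, 50.1 and 79.2 CPM in wild-type library 2, with no climb between sums of 0 and 1 in wild-type library 1. Lhx2 was at 627, 537, 368 and 129 CPM in the Gmnc-/- library, 993, 851, 439 and 163 CPM in wild-type library 1 and 993, 840.1, 442 and 158 CPM in wild-type library 2. Meis2 was at 119, 84.6, 57.7 and 35.6 CPM in the Gmnc-/- library, 131, 54.4, 27.0 and 20.2 CPM in wild-type library 1 and 134, 67.5, 23.4 and 16.8 CPM in wild-type library 2. Both fell at each step. Not every pallial gene fell. Nr2f2 climbed, at 33.9, 73.7, 127 and 262 CPM in the Gmnc-/- library, 36.2, 119, 250 and 283 CPM in wild-type library 1 and 39.5, 105, 271 and 273 CPM in wild-type library 2. Dmrt3 was highest at sums of 4 or more, at 66.5, 54.5, 78.9 and 126 CPM in the Gmnc-/- library, 89.3, 102, 105 and 137 CPM in wild-type library 1 and 85.2, 97.8, 101 and 135 CPM in wild-type library 2. Emx2 kept one level, at 233, 229, 227 and 231 CPM in the Gmnc-/- library, 252, 253, 222 and 241 CPM in wild-type library 1 and 252, 255, 227 and 236 CPM in wild-type library 2.

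Several genes were highest at sums of 2 to 3 in the wild type. In the wild-type libraries Zic4 was at 16.1, 106, 226 and 159.9 CPM and 11.1, 80.7, 207 and 139 CPM, with its highest level at sums of 2 to 3. In the Gmnc-/- library it was at 81.1, 159, 209 and 223 CPM, without that drop. Dlk1, a Notch-ligand-like membrane protein gene, was at 4.59, 10.9, 15.1 and 23.1 CPM in the Gmnc-/- library, 2.95, 33.0, 81.1 and 43.9 CPM in wild-type library 1 and 4.83, 34.9, 70.1 and 53.1 CPM in wild-type library 2. Six3 was at 24.3, 51.0, 53.4 and 59.0 CPM in the Gmnc-/- library, 9.87, 53.2, 104 and 79.9 CPM in wild-type library 1 and 3.41, 50.5, 120.2 and 81.0 CPM in wild-type library 2. Dlk1 and Six3 of the Gmnc-/- library were highest at sums of 4 or more. Msx1 was at 14.0, 35.0, 67.1 and 102 CPM in the Gmnc-/- library, where it climbed at each step, 15.4, 68.5, 108 and 77.2 CPM in wild-type library 1 and 7.95, 29.5, 85.2 and 85.0 CPM in wild-type library 2. Ttr, which is limited by the rule, was at 87.3, 139, 202 and 159 CPM in the Gmnc-/- library, 38.9, 80.7, 173 and 73.9 CPM in wild-type library 1 and 28.0, 62.1, 144 and 69.8 CPM in wild-type library 2. By contrast Fgf17, a signal of the rostral patterning centre, was at 65.5, 115, 137 and 30.7 CPM in the Gmnc-/- library, and at most 19.4 CPM at any sum in the wild-type libraries.

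**Figure D2:**
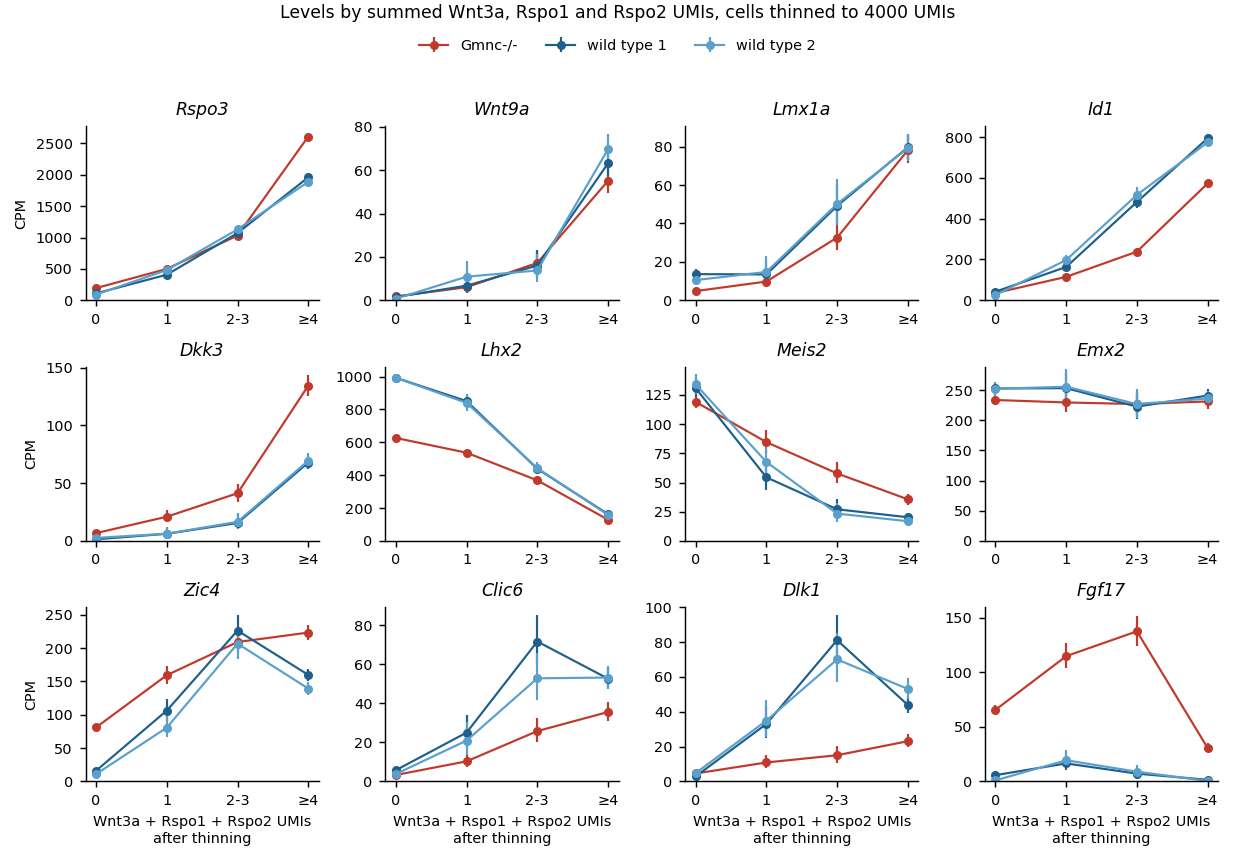
Levels in CPM over the summed Wnt3a, Rspo1 and Rspo2 UMIs of a cell after thinning to 4000 UMIs, for the Gmnc-/- library (red) and wild-type libraries 1 and 2 (dark and light blue); bars are exact 95% Poisson intervals. Rspo3, Wnt9a, Id1 and Dkk3 climb, Lhx2 and Meis2 fall, Emx2 is level, and Zic4 and Dlk1 of the wild type are highest at sums of 2 to 3.

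Wnt3a divided the members further. Members with a Wnt3a UMI had less Lhx2 than members at 0 for Wnt3a, 164 against 358 CPM in the Gmnc-/- library, 175 against 400.2 CPM in wild-type library 1 and 170.3 against 428 CPM in wild-type library 2. Wnt9a was at 48.1 against 25.3 CPM in the Gmnc-/- library, 64.7 against 32.3 CPM in wild-type library 1 and 67.5 against 28.3 CPM in wild-type library 2. Dlk1 went the other way, at 9.36 against 21.5 CPM in the Gmnc-/- library, 28.6 against 80.2 CPM in wild-type library 1 and 23.1 against 106 CPM in wild-type library 2. Members with a Wnt3a UMI were deeper, with a median of 11060 against 8997 UMIs in the Gmnc-/- library and 12674 against 11349 and 13695 against 12484 UMIs in the wild-type libraries, and the part of depth in these differences was not tested.

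Between genotypes, 227 of 6666 genes were called higher in Gmnc-/- than in wild-type members (3.41%) and 62 were called lower (0.93%). The median log2 fold over these genes was -0.08. Most of these shifts were shared with the marker-negative cells: 196 of the 227 higher genes (86.3%) and 38 of the 62 lower genes (61.3%) were at least 2-fold apart in the same direction in marker-negative cells too. Apcdd1, a Wnt inhibitor of the membrane, was at 129 CPM in Gmnc-/- members, against 5.94 and 5.31 CPM in wild-type members, and at 48.9 CPM in Gmnc-/- marker-negative cells, against 0.631 and 0.815 CPM in wild-type ones. The glycolytic gene Pgk1 was at 479.9 CPM in Gmnc-/- members, against 19.4 and 16.6 CPM in wild-type members, and at 606 CPM in Gmnc-/- marker-negative cells, against 29.7 and 23.5 CPM in wild-type ones. Fzd3 behaved likewise, at 322 CPM in Gmnc-/- members, against 67.1 and 62.9 CPM in wild-type members, and at 181 CPM in Gmnc-/- marker-negative cells, against 34.0 and 34.8 CPM in wild-type ones. The software named in the file headers differed between the genotypes, Cell Ranger 6.0.0 for the Gmnc-/- library and 3.1.0 for the wild type, as did the feature sets. Their part in these shifts was not tested.

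Genes whose log2 fold between genotypes was at least 1 larger in members than in marker-negative cells numbered 14 on the higher side (0.21%) and 3 on the lower side (0.045%). Without erythroid cells and microglia among the marker-negative cells, 6 of the 14 and all 3 were still called. The 6 globin genes among the 14, Mt1 and Mt2 were the 8 that were not. Those described here are Igsf9b, Bmp6, Pcp4, Mt2, Mt1 and Meis2. The 3 on the lower side were Dlk1, Bambi and Msx2.

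**Figure D3:**
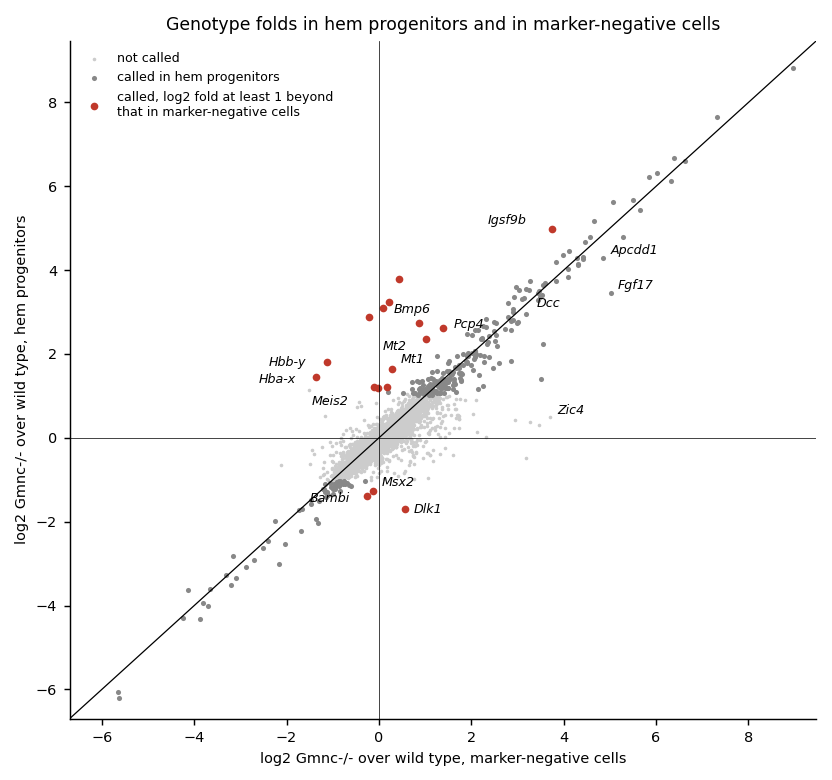
Each point is 1 of 6666 genes, with the log2 fold of Gmnc-/- over wild-type levels in marker-negative cells on the horizontal axis and in hem progenitors on the vertical axis; the diagonal marks equal folds. Most called genes (dark grey) lie along the diagonal, and the 17 genes in red lie at least 1 log2 unit from it.

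Msx2 fell in Gmnc-/- members, to 33.6 CPM, against 80.0 and 85.8 CPM in wild-type members, and wild-type members were 2.46-fold [2.31 to 2.63] higher. In marker-negative cells it was at 0.837 CPM in the Gmnc-/- library, against 0.925 and 1.10 CPM in the wild-type libraries. Bambi, a decoy receptor that is induced by Bmp signals and dampens them, fell to 12.2 CPM, against 33.3 and 34.3 CPM in wild-type members, and wild-type members were 2.76-fold [2.48 to 3.08] higher. Bmp6 rose to 20.6 CPM in Gmnc-/- members, against 2.37 and 2.15 CPM in wild-type members, a 9.10-fold [7.63 to 10.9] difference. Meis2 rose to 62.1 CPM in Gmnc-/- members, against 27.2 and 25.7 CPM in wild-type members, while in marker-negative cells it was at 134 CPM in the Gmnc-/- library, against 144 and 148 CPM in the wild-type libraries. Pcp4, a calmodulin-binding peptide gene, rose to 32.4 CPM, against 4.34 and 4.45 CPM in wild-type members. Mt1 and Mt2 rose to 50.6 and 42.5 CPM in Gmnc-/- members, against 15.8 and 15.1 CPM and 7.91 and 7.18 CPM in wild-type members. All 3 were also higher in Gmnc-/- marker-negative cells once erythroid cells and microglia were left out. There Pcp4 was at 44.9 CPM, against 16.3 and 19.5 CPM in the wild-type libraries. Mt1 was at 177 CPM, against 90.5 and 85.7 CPM, and Mt2 at 57.4 CPM, against 13.0 and 13.4 CPM. Igsf9b was at 65.9 CPM in Gmnc-/- members, against 1.17 and 1.10 CPM in wild-type members, but it also stood at 21.1 CPM in Gmnc-/- marker-negative cells, against 0.463 and 0.815 CPM in wild-type ones.

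Gmnc-/- members had lower sums of the choosing genes, along which Meis2 falls and Msx2 climbs, so levels were also read at a fixed sum. At thinned sums of 4 or more, Meis2 was at 35.6 CPM in the Gmnc-/- library, against 20.2 and 16.8 CPM in the wild-type libraries, which is under the 2-fold limit against wild-type library 1. At a sum of 0 it was lower in the Gmnc-/- library, at 119 CPM, against 131 and 134 CPM in the wild-type libraries. Msx2 at sums of 4 or more was at 53.0 CPM in the Gmnc-/- library, against 99.9 and 102.8 CPM in the wild-type libraries. That is under the 2-fold limit against both. Bambi was at 16.8 CPM there, against 34.5 and 35.6 CPM, which is near the limit, and Bmp6 at 27.7 CPM, against 2.61 and 3.43 CPM. Among members low in genes of G2 and M phase (740 in the Gmnc-/- library and 598 and 494 in the wild-type libraries) the log2 fold of Meis2 was 0.52, under the 2-fold limit. In those members the log2 folds were -1.06 for Msx2, -1.0 for Bambi and 0.30 for Dlk1, and none of these 3 genes stood beyond the marker-negative cells.

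Outside the rule genes, none of 5 Wnt ligand, 2 R-spondin or receptor and 11 dorsal midline genes deep enough was called between the genotypes. Over all genes 3.41% were called higher and 0.93% lower, so no call among so few genes is near that share. The log2 folds of Gmnc-/- over wild-type members were 0.08 for Wnt8b, 0.12 for Rspo3, -0.37 for Lmx1a and 0.38 for Otx2. Wnt5a was higher by 1.01 on the log2 scale and in marker-negative cells by 1.51, but its ratio to wild-type library 2 was below 2. Wnt9a was at a log2 fold of -0.54 and Wnt7b at -0.72. Bmp4 was at 56.0 CPM in Gmnc-/- members, against 112 and 112 CPM in wild-type members, a log2 fold of -0.98 that stayed within the 2-fold limit, and Bmp7 at a log2 fold of -0.56. Id1, Id3 and Msx1 had log2 folds of -0.78, -0.70 and -0.04 in members and 0.57, 0.18 and 0.68 in marker-negative cells. The list of Bmp targets and antagonists had a median log2 fold of -0.57 in members and 0.47 in marker-negative cells, with 1 gene of 10 called higher (Id4) and 2 lower.

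Several midline genes were instead nearer between genotypes in members than in marker-negative cells. Zic4 had a log2 fold of 0.49 in members and 3.70 in marker-negative cells, where it was at 65.9 CPM in the Gmnc-/- library, against 5.005 and 3.26 CPM in the wild-type libraries. Otx2 in marker-negative cells was at 31.1 CPM in the Gmnc-/- library, against 2.90 and 1.77 CPM in the wild-type libraries, and Zic1 at 137 CPM, against 32.6 and 28.6 CPM. Fgf17 was called in members, at 72.4 CPM in Gmnc-/- members, against 6.68 and 4.63 CPM in wild-type members, and stood at 57.3 CPM in Gmnc-/- marker-negative cells, against 1.22 and 0.383 CPM in wild-type ones. Midline genes thus set the marker-negative cells of the 2 genotypes apart, which limits their use as a baseline.

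Of 10 late timing genes Nfib, Nfia and Aldoc were called higher in Gmnc-/- members (median log2 fold 0.82 in members and 0.71 in marker-negative cells). Nfia, a nuclear factor I gene that rises with progenitor age, was at 558 CPM in Gmnc-/- members, against 227 and 229 CPM in wild-type members, and Nfib at 825 CPM in Gmnc-/- members, against 401 and 403 CPM in wild-type members. No early timing gene was called among 4 (median log2 fold -0.26). The wild-type pool contained E11.5 embryos and the Gmnc-/- pool did not. Against tdTomato members, which are of E12.5, Nfia had a log2 fold of 1.11, compared with 1.29 against all wild-type members. For Nfib these values were 0.93 and 1.04, the first under the 2-fold limit, and for Aldoc 2.86 and 2.47. In the S phase list Pcna was called higher and Mcm2 lower among 21, and marker-negative cells had log2 folds of 1.62 and -1.16. No gene of G2 and M phase was called among 22. Over all genes 3.41% were called higher and 0.93% lower, and lists this short without a call lie near that share. Of the dissociation stress genes Jun, Egr1 and Fosb, immediate early genes, were called higher among 7. Of the multiciliation regulators, 1 of 5 was called, Foxj1, with a log2 fold of -1.04 in members and -0.29 in marker-negative cells. At thinned sums of 4 or more, Foxj1 was at 22.5 CPM in the Gmnc-/- library, against 34.4 and 38.9 CPM in the wild-type libraries. Both ratios are under the 2-fold limit. Of 7 erythroid markers 6 were called higher in Gmnc-/- members. Marked doublets made up 13.8% of Gmnc-/- members, against 7.20% and 6.71% of wild-type members. The share marked was fixed for each library by its number of barcodes, so this contrast between genotypes was set in advance. Over all cells it was 16.2% in the Gmnc-/- library and 9.94% and 8.32% in the wild-type libraries, above the share of members in each. Without them 229 genes were higher and 65 lower in Gmnc-/- members, and 15 and 4 stood beyond the marker-negative cells. The part of free RNA in the genotype differences was not tested.

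Reporter UMIs divided the wild-type members by stage. A tdTomato UMI without YFP was seen in 368 and 284 members of wild-type libraries 1 and 2 (14.8% and 13.5%), YFP without tdTomato in 1725 and 1457, neither in 312 and 292, and both in 82 and 68. Dlk1 was at 12.4 and 9.09 CPM in tdTomato members of E12.5, against 64.1 and 77.9 CPM in YFP members of E11.5. The Gmnc-/- level of 17.3 CPM lay above both tdTomato values, so the call on Dlk1 did not hold against tdTomato members. Those members differ from YFP members in Wnt3a lineage as well as in stage. Dlk1 was also lower in wild-type members with a Wnt3a UMI, so the parts of stage and lineage cannot be told apart. Msx2 was at 33.6 CPM in Gmnc-/- members, against 101 and 89.0 CPM in tdTomato members and 80.4 and 90.2 CPM in YFP members. Bambi was at 12.2 CPM in Gmnc-/- members, against 32.9 and 46.1 CPM in tdTomato members and 35.5 and 32.6 CPM in YFP members. Bmp6 was at 20.6 CPM in Gmnc-/- members, against 3.41 and 3.46 CPM in tdTomato members and 2.37 and 2.02 CPM in YFP members. Msx2, Bambi and Bmp6 thus kept their difference against both reporter classes, which were not matched for the sum of the choosing genes. Six3 in the wild type was at 58.9 and 45.2 CPM in tdTomato members, against 99.6 and 91.8 CPM in YFP members. Because Wnt3aCre marks Wnt3a-lineage cells, tdTomato members are not a sample of all E12.5 members: their Lhx2 was at 215 and 221 CPM, against 273 and 273 CPM in YFP members and 451 and 487 CPM in members with neither reporter.

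**Figure D4:**
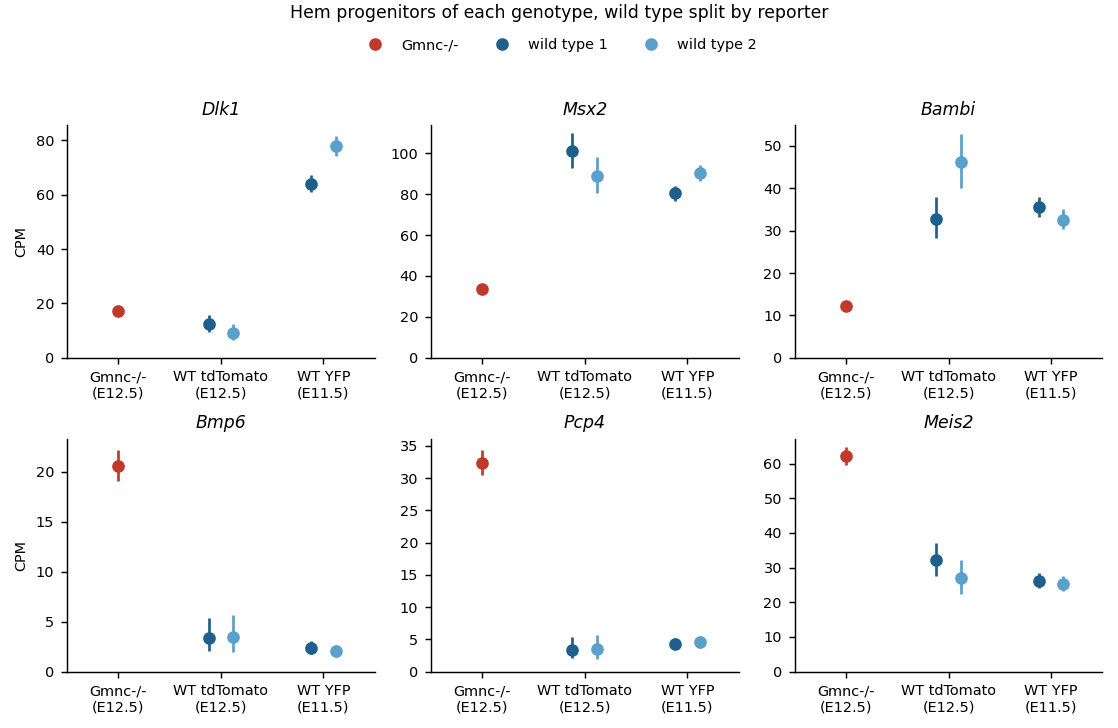
Levels in CPM in Gmnc-/- hem progenitors (E12.5), wild-type hem progenitors with tdTomato and no YFP (E12.5) and wild-type hem progenitors with YFP and no tdTomato (E11.5), the wild-type libraries in dark and light blue; bars are exact 95% Poisson intervals. Dlk1 of the Gmnc-/- library lies near the tdTomato values and far below the YFP values, while Msx2 and Bambi lie below both and Bmp6, Pcp4 and Meis2 above both.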

How the data were processed

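Droplet RNA-seq libraries (10x Genomics, 3′ chemistry) were analysed from the UMI counts per gene and cell barcode that the authors deposited as filtered matrices. Per the file headers, the matrices were written by Cell Ranger 6.0.0 for the Gmnc-/- library and by Cell Ranger 3.1.0 for the wild-type libraries; the submitters' processing notes name the mm10 build. The counts are raw and not normalized. The feature sets held 32285 genes in the Gmnc-/- library and 28001 in the wild-type libraries, of which the 27040 shared Ensembl IDs were used; they carried 99.2% of the UMIs in the Gmnc-/- library and 99.8% in each wild-type library. Symbols differed for 1227 shared IDs.

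Cells with at least 1000 genes, at least 2000 UMIs and at most 10% mitochondrial UMIs were kept. Members had at least 4 UMIs of Wnt3a, Rspo1 and Rspo2, at most 4 of Neurog2, Eomes and Gadd45g, at most 2 of Col3a1, and, per 10000 UMIs, fewer than 8 of Tubb3 and Stmn2 and fewer than 20 of Ttr. Doublets were marked by neighbours among simulated pairs of cells (2491, 941 and 679 cells in the Gmnc-/- library and wild-type libraries 1 and 2) and kept, with their removal as an alternative. The share marked in a library was fixed at 0.8% per 1000 barcodes. UMIs were summed per class and library to CPM. Log2 folds were computed as log2 of the CPM plus 1, which understates the change of low genes, and between genotypes against the mean of both wild-type libraries. No p-value was computed, because each genotype was 1 suspension.

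The members and the 32 gene lists (429 of 430 genes matched) were chosen with earlier results of these data known. Always named were the markers, Gmnc and the Wnt ligand, R-spondin, Bmp ligand and dorsal midline genes reaching 20 CPM. From each other list the 4 most abundant could be named, and by fold the 15 highest and 15 lowest called genes, and between genotypes up to 12 each way beyond the marker-negative cells, without globin, ribosomal, mitochondrial and sex-linked genes. Other genes named as called within a list, and those named by their pattern over the summed UMIs, were chosen after their values were seen. Some genes, and 1 planned choice of reference cells, are not reported here. Erythroid cells had at least 20% globin UMIs. Alternatives changed the limit on the sum, depth, doublets, size factors, the CPM minimum, the averaging, the cell cycle range and the reference cells. Computations used Python 3.11.15, numpy 2.4.6, scipy 1.17.1, pandas 2.3.3 and matplotlib 3.10.9.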

Additional observations from a re-analysis of the deposited data

Results flagged for a closer look

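The globin genes Hba-x and Hbb-y moved opposite ways between the genotypes in members and in marker-negative cells. Hba-x was at 1641 CPM in Gmnc-/- members, against 455 and 747 CPM in wild-type members, a log2 fold of 1.45. In marker-negative cells it was at 6585 CPM in the Gmnc-/- library, against 15864 and 17923 CPM in the wild-type libraries, a log2 fold of -1.36. Hbb-y was at 6542 CPM in Gmnc-/- members, against 1518 and 2218 CPM in wild-type members, a log2 fold of 1.81, and in marker-negative cells its log2 fold was -1.13. Every library followed this pattern, and the difference between the 2 classes of cells was not tested. Marker-negative cells without erythroid cells and microglia had log2 folds of 1.66 for Hba-x and 2.04 for Hbb-y, close to those of the members.

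A feature named for an IRES-Cre sequence, present in the wild-type feature set alone, was not used in any comparison. It had a UMI in 8 of 2487 members of wild-type library 1 (0.322%, exact 95% binomial interval 0.139% to 0.633%) and in 11 of 2101 members of wild-type library 2 (0.524%, 0.262% to 0.935%). In marker-negative cells it had a UMI in 0 of 1647 and 0 of 1342 cells, which allows shares of up to 0.182% and 0.224%. The interval of library 1 reaches below its limit and that of library 2 does not. Marker-negative cells were chosen to have 0 UMIs of Wnt3a. Of the members with a UMI, 5 in wild-type library 1 and 9 in wild-type library 2 carried tdTomato and no YFP, and 1 in each carried YFP and no tdTomato.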

How the results depend on the processing

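No paired analysis was possible because the genotypes were 1 suspension each and the replicate numbers name technical libraries of the wild type. Taking each named gene under each alternative, the fold of members over marker-negative cells kept its direction and its side of the 2-fold limit in 355 cases, lost the call in 2 and reversed in 7. For the fold between genotypes these numbers were 132, 1 and 2. Leaving out either wild-type library gave 203 to 204 genes higher and 32 lower in members than in marker-negative cells, 238 to 243 higher and 70 to 72 lower in Gmnc-/- members, and 14 to 16 and 3 to 4 beyond marker-negative cells, with the shares as before.

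The shares of members in the Gmnc-/- library and wild-type libraries 1 and 2 were 18.7%, 27.5% and 26.9% with a limit of 3 on the sum and 13.3%, 23.8% and 24.0% with a limit of 6. Thinned to 4000 UMIs they were 24.4% and 23.9% in the wild type. Genes lower in members than in marker-negative cells numbered 48 after thinning, 61 with median-ratio and 57 with TMM size factors, 49 with means over cells and 46 in cells low in G2 and M phase genes. With no CPM minimum, 527 genes were higher and 167 lower in members, and 556 were higher and 108 lower in Gmnc-/- members, with 32 and 14 beyond marker-negative cells. The count of genes lower in Gmnc-/- members beyond marker-negative cells was 5 with a limit of 3, 1 after thinning, 1 with means over cells, 6 in cells low in G2 and M phase genes and 5 against tdTomato members.

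The alternative that left erythroid cells and microglia out of the marker-negative cells was chosen after the data were seen. It gave 6 genes higher in Gmnc-/- members beyond marker-negative cells. The log2 folds of members over these cells reversed in every library, and over the 3 libraries they ran from 0.41 to 1.55 for Tyrobp, 0.82 to 1.44 for C1qb, 0.89 to 1.27 for Fcer1g, 1.49 to 1.89 for Car2, 0.84 to 1.95 for Slc4a1, 1.57 to 2.04 for Alas2 and 1.05 to 1.80 for Apoe. Dlk1 between genotypes reversed to 0.30 in members low in G2 and M phase genes and to 0.64 against tdTomato members. These marker-negative cells held fewer blood cells by construction, while the members kept theirs. For the other changes the cause was not tested. Counting error limits genes under 20 CPM, and with 1 suspension a genotype the spread between embryos is unknown.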
